A study of Mus musculus with 19 samples.

Results

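Interferon-stimulated genes are the genes that cells switch on when an interferon binds its receptor. A list of 47 of them was followed across 19 RNA libraries of mouse lin-Sca+cKit+ cells, the marrow fraction that holds hematopoietic stem and early progenitor cells. The members were a fixed set of symbols from general knowledge, chosen with earlier results of these data known. Each was represented by the RefSeq accession with the highest mean count. They comprise 10 sensors of foreign nucleic acid, 4 transcription factors, 12 nuclear and signalling modulators, 8 GTPases and 13 other effectors, out of 24210 genes in the count table. Of the 47, 38 passed the filter on low counts and were tested, and 9 were not.

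The cells were sorted from C57BL/6 mice and were not cultured. Untreated wild type mice gave 4 libraries (WT: wt1, wt2, wt3, wt4). Mice of the genotype Idh2 R140Q;Flt3-ITD with acute myeloid leukemia gave 3 libraries after vehicle (IDH2-FLT3 vehicle: V3, V3-2, V9) and 4 after AG-221, an oral inhibitor of mutant IDH2 (AG1, AG12, AG13, AG8). Mice of the genotype that the labels spell Tet2-/-;Flt3-IDT, also with leukemia, gave 4 libraries after vehicle (TET2-FLT3 vehicle: V1, V19, V5, V5-2) and 4 after 5-azacytidine, a hypomethylating drug (5-Aza: AZ10, AZ11, AZ16, AZ17). Gavage doses of AG-221 came 2 times daily over 4 to 5 weeks, with 100.0 mg/kg where it was the single agent and 40.0 mg/kg in combination, and the labels do not assign a dose to each library. The 5-Aza schedule was 4 cycles of 21 days, each with 5 injections of 5 mg/kg. Both leukemic lines share the internal tandem duplication of Flt3, which WT mice lack, and WT mice got no vehicle, so genotype, leukemia and vehicle cannot be told apart in a comparison with WT. The labels name no age, sex, promoter, Cre line or number of animals per library, and do not say whether V3-2 and V5-2 come from the same animals as V3 and V5. The p-values therefore measure the spread between libraries, which may in part be technical.

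Type I interferons bind IFNAR1 and IFNAR2, whose kinases JAK1 and TYK2 phosphorylate STAT proteins, STAT2 among them. These join IRF9 and bind the interferon-stimulated response element in the promoters of their targets, while interferon gamma acts through another element, the gamma-activated site. The products sense viral RNA and DNA, degrade or sequester RNA, tag proteins with the ubiquitin-like ISG15 and block virus entry and release. In marrow, interferons push quiescent stem cells into division. Mutant IDH2 makes a metabolite that inhibits TET2 and other dioxygenases, and TET2 oxidises methylated cytosine.

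The response element was looked for on either strand, as a pair of GAAA with any 2 bases between them, in RefSeq promoter windows of the mouse build GRCm38.p6, from 250 bases before to 50 after each transcription start. Windows were found for 35 of the 47 members, and 18 of these (51.4%) held the motif, against 3.99% of 27025 genes with windows. The gamma-activated site, TTCNNNGAA (N is any base), was in the windows of 10 of the 35 members (28.6%), against 9.55% of all genes. The motif was about as frequent in members whose level differed in some comparison (10 of 17) as in tested members whose level never passed (7 of 13). A match describes the sequence and not a site bound in these cells. The stretches shown here, 60 bases each and read 5′ to 3′ on the gene's strand, belong to Ifit1, Isg15, Gbp2, Rsad2 and Oas3. They were picked among the members that hold the motif and whose level differed in some comparison. Oasl2, Oasl1, Parp12, Samd9l, Herc6, Irf1 and Xaf1 also differed in some comparison, and their windows held no match. Capitals mark the motif or, where it lies on the other strand, its complement with TTTC in place of GAAA.
Ifit1 (chr19:34640779-34640838, + strand): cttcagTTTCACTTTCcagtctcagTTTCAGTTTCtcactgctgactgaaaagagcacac
Isg15 (chr4:156200850-156200909, - strand): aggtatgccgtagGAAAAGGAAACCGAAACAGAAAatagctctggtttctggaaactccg
Gbp2 (chr3:142620579-142620638, + strand): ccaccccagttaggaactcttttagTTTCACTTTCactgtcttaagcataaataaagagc
Rsad2 (chr12:26456538-26456597, - strand): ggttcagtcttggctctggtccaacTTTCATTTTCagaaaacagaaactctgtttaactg
Oas3 (chr5:120777700-120777759, - strand): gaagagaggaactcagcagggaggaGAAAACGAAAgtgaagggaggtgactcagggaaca
Each stretch lies upstream of its gene's transcription start. Ifit1 and Isg15 carry several copies of the motif, the copies in Isg15 overlapping each other, and Gbp2, Rsad2 and Oas3 carry 1 each.

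Assigned counts per library ran from 9635795 in V1 to 20383132 in V5-2. V1 detected the fewest accessions, 12088, and had the largest share of counts on accessions without a gene name, 9.69% against 0.892% to 5.34% in the other libraries. Genes with several accessions in the table had 0 counts in all libraries more often (27.1% of 5140 genes) than genes with 1 accession (18.7% of 19070), and their median total was 16 counts against 135.5; the reason was not tested. The stem cell gate genes Kit and Ly6a had 4 counts and 0 in all libraries together. Of 6 genes of the gate Flt3 alone has 1 accession, and its mean level in CPM (counts scaled to the library total) was 408 in WT, 155 in IDH2-FLT3 vehicle and 308 with AG-221, against 387 in TET2-FLT3 vehicle and 229 with 5-Aza. Cd34 and Meis1 were counted at low levels. Genes of mature cells were counted in every group although the sort excluded lineage markers. The summed level of 8 monocyte and macrophage genes ran from 462 to 886 CPM in WT, 2035 to 6009 in IDH2-FLT3 vehicle and 628 to 3163 with AG-221. In TET2-FLT3 vehicle it was 1088 to 2457 CPM, and with 5-Aza 408 to 814. The sum of 8 genes of plasmacytoid dendritic cells, a major source of type I interferon, was 79.9 to 109.6 CPM in WT and lower elsewhere, at 4.30 to 9.71 in IDH2-FLT3 vehicle, 8.78 to 37.9 after AG-221, 13.4 to 34.1 in the TET2-FLT3 vehicle libraries and 9.30 to 19.7 after 5-Aza, with none at 0 counts and Ccr9 and Pacsin1 at 9 and 2 counts in all libraries together. That of 8 neutrophil genes ran from 1606 to 4088 CPM in WT and from 873 to 25357 in IDH2-FLT3 vehicle and 1392 to 23784 with AG-221, highest in V3 and AG12. It was 202 to 2295 CPM in the TET2-FLT3 vehicle libraries and 513 to 1762 after 5-Aza. The summed level of 7 conventional dendritic cell genes ran from 750.1 to 942 CPM in WT, 987 to 5611 in IDH2-FLT3 vehicle, 536 to 4419 after AG-221, 1870.4 to 5561 in the TET2-FLT3 vehicle libraries and 253 to 488 after 5-Aza. H2-Ab1 and Flt3, the latter also a gate gene, made up most of the conventional dendritic sum in each group. Their means were 397 and 408 CPM in WT and 3221 and 387 in TET2-FLT3 vehicle, and Clec9a had 0 counts. The summed level of 6 B cell genes ran from 351 to 392 CPM in WT, 50.8 to 103 in IDH2-FLT3 vehicle and 46.3 to 97.7 after AG-221. It was 46.3 to 97.6 in the TET2-FLT3 vehicle libraries and 63.8 to 139 after 5-Aza. That of 6 T and NK cell genes ran from 831 to 1307 CPM in WT, 477 to 1883 in IDH2-FLT3 vehicle, 1265 to 1964 after AG-221, 239 to 2121 in the TET2-FLT3 vehicle libraries and 1939 to 3302 after 5-Aza. Nkg7 made up most of the T and NK cell sum, with a mean of 1024 CPM in WT and 2345 with 5-Aza. The others were lower with 5-Aza than in WT: Cd3e 0.271 against 4.04, Cd3g 0.241 against 4.465, Cd3d 0.724 against 2.67, Ncr1 0 against 0.977. Klrb1c had 0 counts in all libraries. The summed level of 6 erythroid genes ran from 81.9 to 171 CPM in WT, 5.15 to 7.94 in IDH2-FLT3 vehicle and 5.24 to 24.4 after AG-221. It was 2.32 to 6.53 in the TET2-FLT3 vehicle libraries and 27.1 to 62.1 after 5-Aza. In bulk RNA, fewer cells of a type and less RNA per cell cannot be told apart.

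Irf7, the master regulator of late interferon production, was at 0 counts in all 19 libraries, as were Gbp7 and Ifi27. Irf9 (94 counts in all), Nmi (82), Mx1 (30), Iigp1 (19), Adar (4) and Mx2 (1) were too low to test. Of these 9 genes, 8 have several accessions in the table, Mx1 being the exception, and whether their low counts reflect low expression was not tested. Ifih1, Zbp1, Irf1, Gbp3 and Xaf1 were tested but also have several accessions, and their values are those of 1 accession. Closely related copies of the Ifit, Oas, Gbp and Trim30 families can split reads between them, which the deposited counts do not resolve. The 33 tested members with 1 accession carry most of what follows. Per length, the authors' mean FPKM in WT was highest for Ifitm3 (1187), Bst2 (286) and Lgals3bp (127) and lowest for Ifih1 (0.0828).

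**Figure D1:**
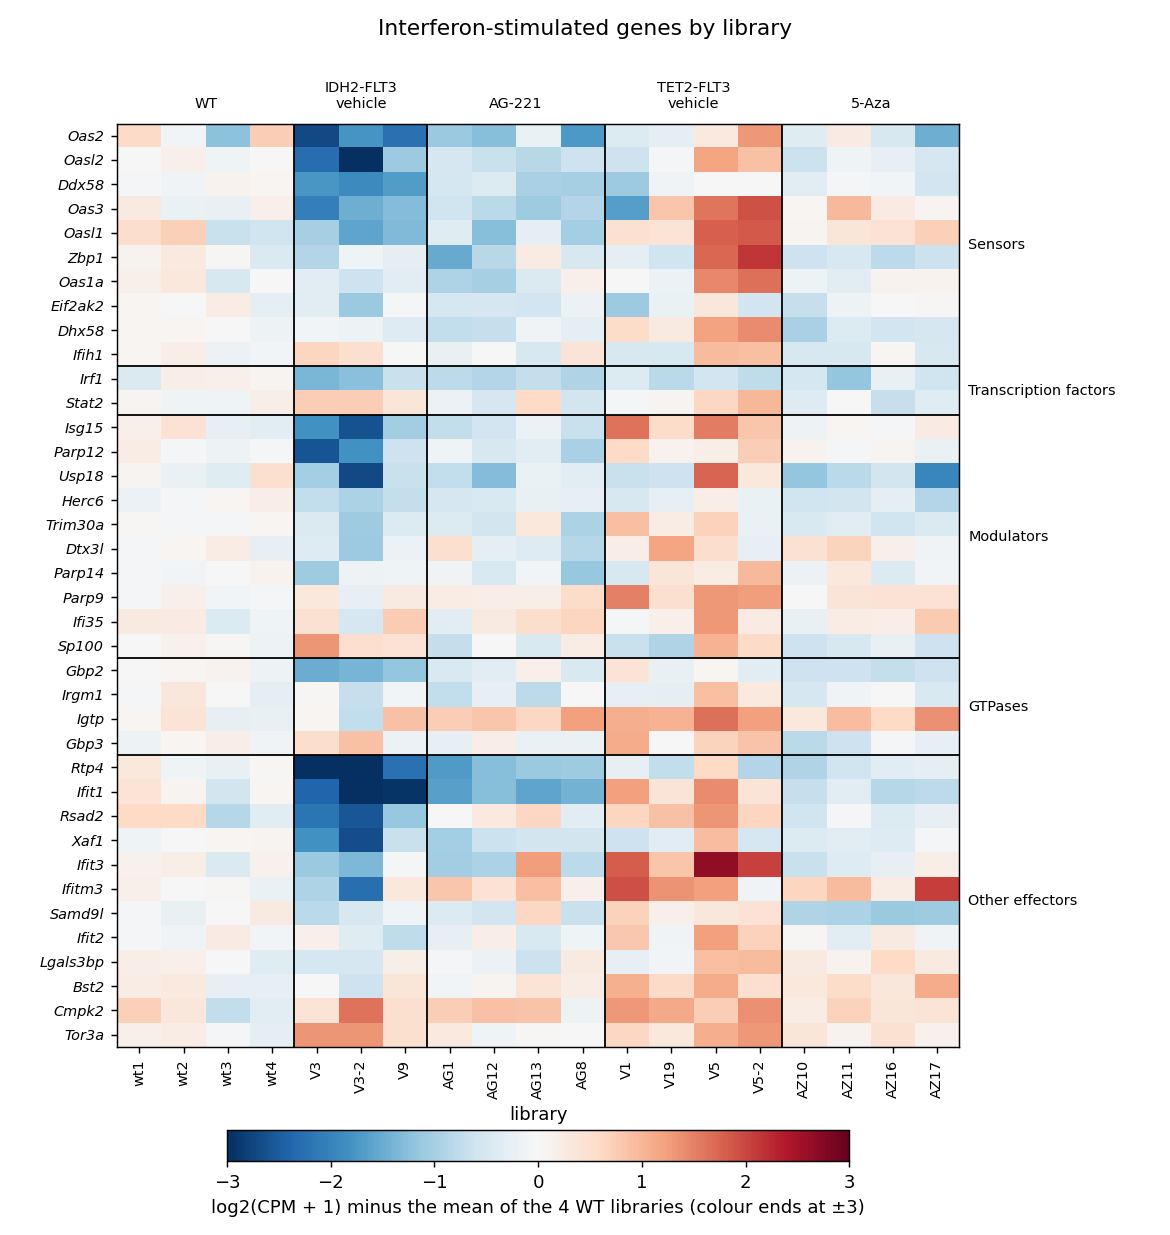
Level of each of the 38 tested members in each of the 19 libraries, as the log2 ratio of its CPM to the WT mean, with members in rows by role and libraries in columns by group. Blue (lower than WT) fills most of the V3 and V3-2 columns and red (higher) most of the V5 and V5-2 columns, where 33 and 24 members stood above the highest WT library.

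In IDH2-FLT3 vehicle cells more interferon-stimulated genes fell than rose against WT. Of the 38 tested members 14 fell, 1 rose and 23 did not pass, against 10.4% of all 11830 accessions that fell and 10.1% that rose. Among those that fell were the RNA sensor Ddx58, the oligoadenylate synthetases Oas2 and Oas3 and their relatives Oasl1 and Oasl2. The others were the transcription factor Irf1, the modulators Parp12, Isg15 and Herc6, the GTPase Gbp2 and the effectors Ifit1, Rsad2, Xaf1 and Rtp4. Tor3a, an ATPase of the endoplasmic reticulum, was the member that rose. Estimates were above 0 in 9 of 38 members, and the median log2 fold change was -0.56, beside 0.02 for all accessions. In 17 members every IDH2-FLT3 vehicle library lay below every WT library (20.0% of all accessions did), and in 3 every library lay above (17.1%). Of the sensors 5 of 10 were lower, and 9 of 10 estimates lay below 0. Markers of other cells moved in this comparison too. All 7 tested monocyte genes rose, with 3 of 7 neutrophil genes and 3 of 6 conventional dendritic genes (1 of the 6 fell). All 5 tested B cell genes and all 5 erythroid genes fell, with 4 of 5 T and NK cell genes and 5 of 6 plasmacytoid dendritic genes. Their part in the result was not tested. With single libraries left out, 10 to 16 members passed.

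In TET2-FLT3 vehicle cells the same list leaned the other way. Against WT 6 members rose, 0 fell and 32 did not pass by edgeR's quasi-likelihood test, beside 4.43% of all accessions that rose and 5.71% that fell. At an unadjusted p under 0.05 the counts were 16 higher and 0 lower, and DESeq2 gave 9 higher and 0 lower. The 6 were the sensor Dhx58, the modulators Parp9 and Isg15, the GTPase Igtp, the tetherin gene Bst2 and Tor3a. The members' median was 0.53 beside 0.07 for all accessions, and 33 of 38 estimates lay above 0. In 9 members every TET2-FLT3 vehicle library lay above every WT library (6.98% of all accessions), and in 0 below (11.5%). The rise was uneven over libraries. V5 exceeded the highest WT library in 33 of 38 members, V5-2 in 24, V1 in 17 and V19 in 14. Within WT, wt2 exceeded the highest of the other WT libraries in 15. Below the lowest WT library lay 1 member in V5, 7 in V5-2, 11 in V1 and 11 in V19. On the log2(CPM + 1) scale the members' median difference from the WT mean was 0.995 in V5 and 0.72 in V5-2. It was 0.099 in V1 and 0.092 in V19. The count of calls was 3 without wt1, 1 without wt3, 2 without wt4, 3 without V5 and 10 without V19. In this comparison 4 of 7 tested monocyte genes and 4 of 6 conventional dendritic genes rose. All 5 tested B cell genes and all 5 erythroid genes fell, with 2 of 5 T and NK cell genes and 1 of 6 plasmacytoid dendritic genes, and their part was not tested.

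Compared directly, IDH2-FLT3 vehicle stood below TET2-FLT3 vehicle in 15 of 38 members and above it in 0 by edgeR's quasi-likelihood test, where 2.35% of all accessions were lower and 1.93% higher. At an unadjusted p under 0.05 there were 28 lower and 0 higher, and DESeq2 called 26 lower and 0 higher. The median difference was -1.11 beside 0.01 for all accessions, and the libraries did not overlap in 20 members, all lower (4.51% of all accessions were lower and 4.07% higher without overlap). The largest differences were in Ifit1 (-4.43 ± 0.47, adjusted p = 1.26e-05), Ifit3 (-3.77 ± 0.95, adjusted p = 0.0269), which lost its call without V3 or V3-2 (adjusted p up to 0.188), and Rtp4 (-3.45 ± 0.70, adjusted p = 0.00713), which lost it without V3 (adjusted p = 0.0689). Without V3 the count of calls was 8. In a fit of these 7 libraries alone 1 member passed, Ifit1, out of 17 accessions in all. Without V9 the count was 22, with Bst2, Ifitm3, Igtp, Irf1, Samd9l, Usp18 and Xaf1 also lower. In this comparison 4 of 7 tested neutrophil genes and 3 of 7 monocyte genes were higher in IDH2-FLT3 vehicle, and their part was not tested.

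**Figure D2:**
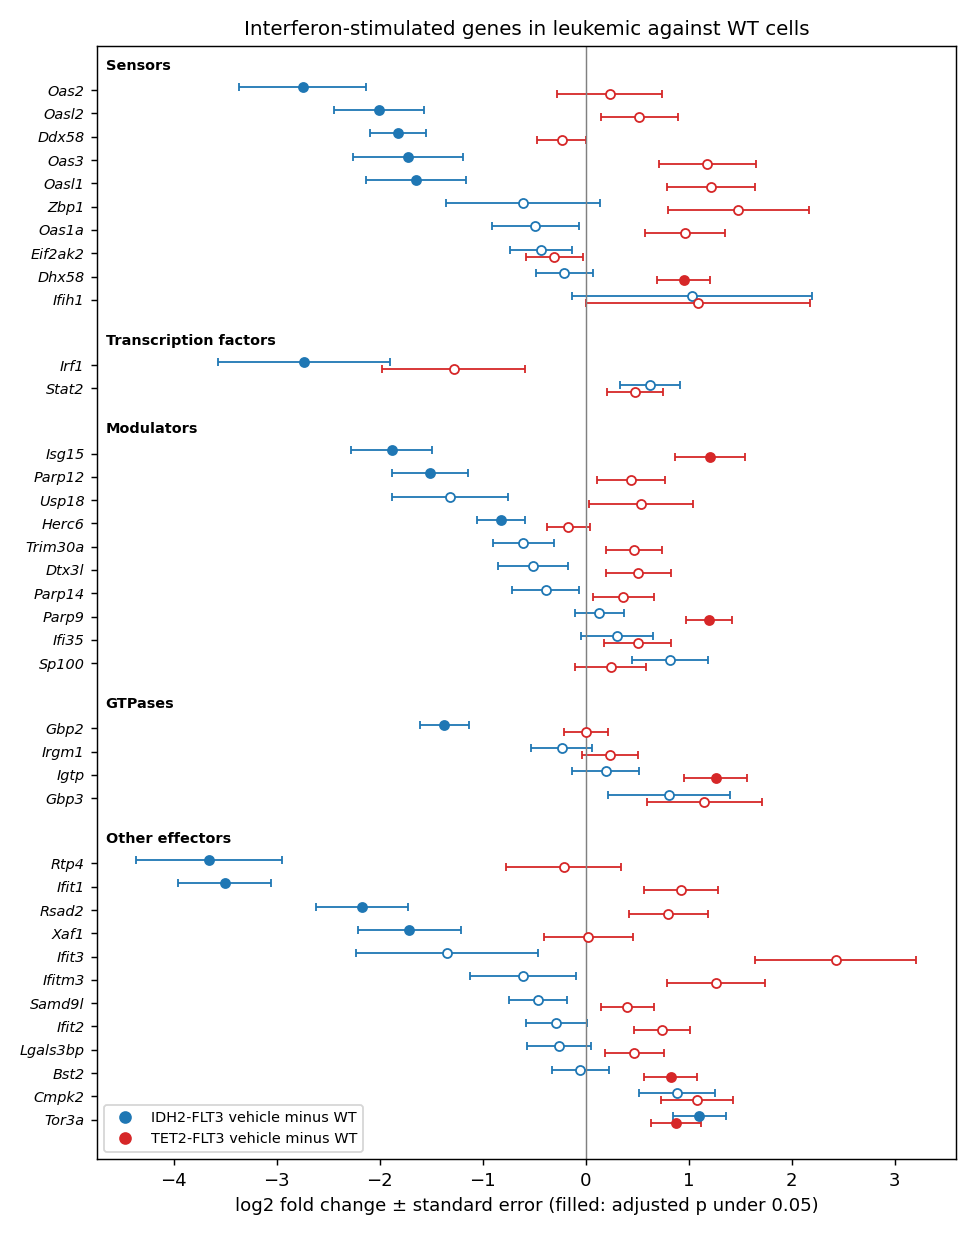
Log2 fold change of each tested member against WT in IDH2-FLT3 vehicle and in TET2-FLT3 vehicle, with standard errors, members in rows by role and filled points for an adjusted p under 0.05. Filled points of IDH2-FLT3 vehicle lie left of 0 except for Tor3a, those of TET2-FLT3 vehicle right of it, and both sets of estimates share the WT libraries.

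With AG-221, 7 members rose against IDH2-FLT3 vehicle, 1 fell and 30 did not pass, while 4.39% of all accessions rose and 5.29% fell. Ddx58, Oasl2, Isg15, Gbp2, Ifit1, Rsad2 and Rtp4 rose, and Tor3a fell. The members' median was 0.31 beside -0.00 for all accessions. In 10 members every AG-221 library lay above every vehicle library (13% of all accessions) and in 2 below (10.8%). Against WT, the AG-221 libraries differed in 1 member, Ifit1, which was lower, beside 1.67% of all accessions lower and 1.04% higher; its call ended without wt1 (adjusted p = 0.0617). The AG-221 estimates against WT were below 0 in 30 of 38 members, all 10 sensors among them. Their median was -0.35 beside 0.01 for all accessions. Both comparisons of vehicle share the same 3 libraries, so the values are given side by side and not as independent results. The calls of AG-221 against vehicle depended on single libraries: 1 member passed without V3, 0 without V3-2, 13 without V9, 4 without AG12 and 5 without AG8. By the quasi-likelihood test without V3-2, 110.0 accessions passed in all. In a fit of these 7 libraries alone 0 members passed, out of 0 accessions. At an unadjusted p under 0.05, 10 members were higher and 2 lower without V3-2, and 9 higher and 3 lower in the fit of 7. Beside these values 4 of 5 tested T and NK cell genes rose with AG-221, as did 1 of 5 B cell, 1 of 5 erythroid and 1 of 6 plasmacytoid dendritic genes, while 3 of 7 monocyte genes fell, and their part was not tested.

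With 5-Aza, 4 members fell against TET2-FLT3 vehicle, 0 rose and 34 did not pass by edgeR's quasi-likelihood test, where 1.45% of all accessions fell and 0.431% rose. They were Dhx58, Parp9, Ifit1 and Samd9l. At an unadjusted p under 0.05 there were 21 lower and 0 higher, and DESeq2 called 12 lower and 0 higher. Estimates were below 0 in 36 of 38 members, with a median of -0.75 beside -0.05 for all accessions. In 11 members every 5-Aza library lay below every vehicle library (4.26% of all accessions) and in 0 above (2.83%). Against WT, 1 member passed with 5-Aza, Samd9l (-1.03 ± 0.26, adjusted p = 0.0458), beside 1.10% of all accessions lower and 0.617% higher, and this call ended without any 1 of the 8 libraries (adjusted p up to 0.17, without wt4). The 5-Aza estimates against WT were below 0 in 26 of 38 members, with a median of -0.28 beside -0.03 for all accessions. TET2-FLT3 vehicle enters the comparisons with WT and with 5-Aza through the same 4 libraries, so these are not independent results. The count of calls against vehicle was 2 without V5, AZ10, AZ16 or AZ17 each and 7 without V19. In this comparison 2 of 7 tested monocyte genes and 4 of 6 conventional dendritic genes also fell, while 4 of 5 erythroid genes and 1 of 5 B cell genes rose, and their part was not tested.

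The responses to the drugs differed in 4 members. The AG-221 response minus the 5-Aza response was above 0 for Isg15 (2.50 ± 0.52, adjusted p = 0.0434), Gbp2 (1.79 ± 0.32, adjusted p = 0.0166), Ifit1 (3.52 ± 0.56, adjusted p = 0.014) and Rsad2 (3.49 ± 0.59, adjusted p = 0.014), while 0.203% of all accessions passed in that direction and 0.0254% in the other. No member passed in the other direction by the quasi-likelihood test, with 0 at an unadjusted p under 0.05 (21 above 0) and 0 by DESeq2 (10 above 0). These differences were between drugs given to different genotypes, at other doses and times. They were computed from the same libraries as the comparisons of each drug with vehicle and are not independent of them. The count was 1 without V3, 0 without V3-2, 11 without V9 (Ifit3, Igtp, Oasl2, Parp12, Rtp4, Samd9l and Xaf1 beside the 4) and 2 without AZ16, and 0 in a fit without WT, where no accession passed. At an unadjusted p under 0.05, 20 members lay above 0 and 0 below without V3-2, and 18 and 0 without WT.

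**Figure D3:**
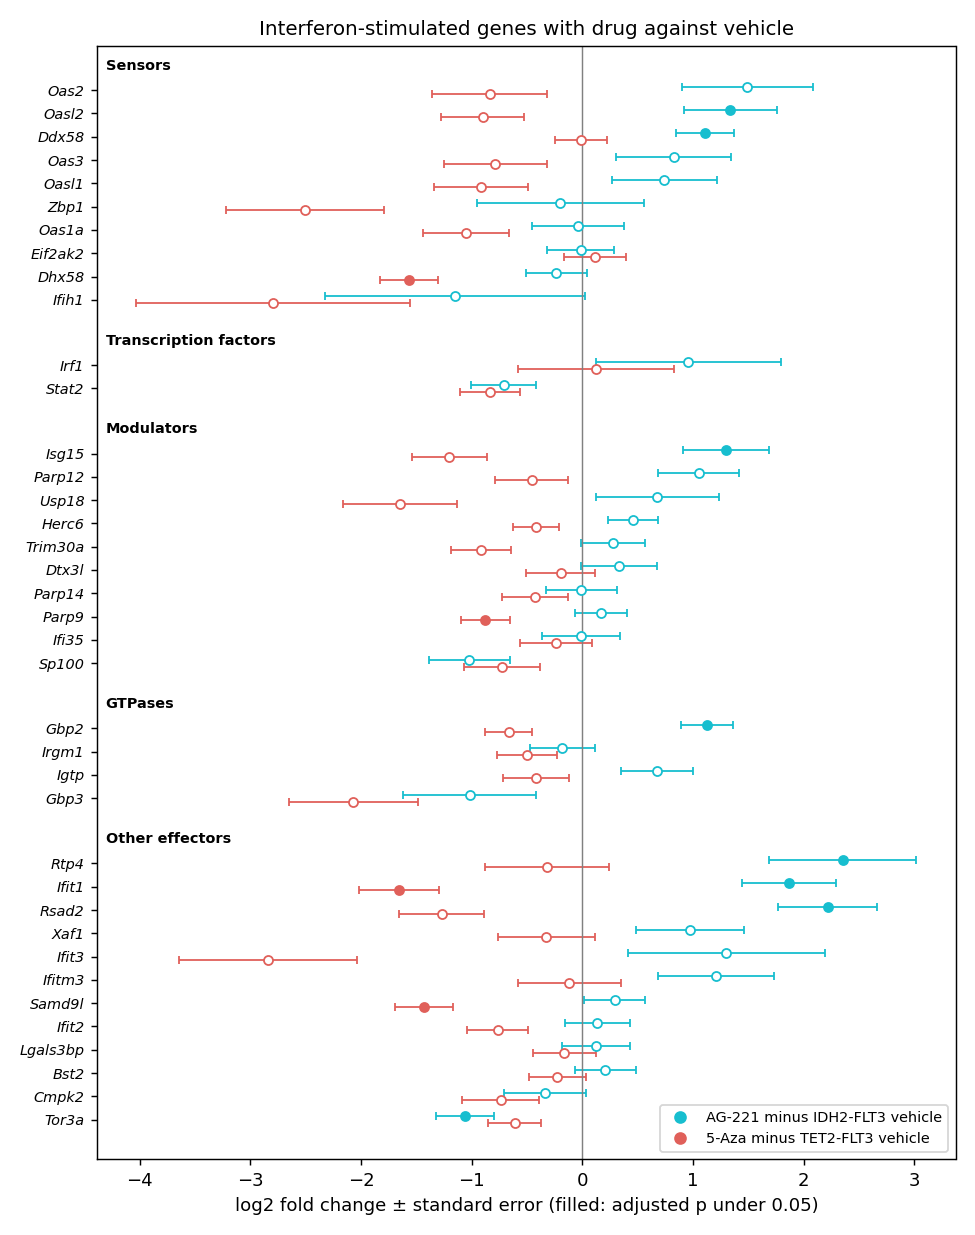
Log2 fold change of each tested member with AG-221 against IDH2-FLT3 vehicle and with 5-Aza against TET2-FLT3 vehicle, with standard errors, members in rows by role and filled points for an adjusted p under 0.05. Filled points of AG-221 lie right of 0 except for Tor3a and those of 5-Aza left of it.

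Among the sensors, Ddx58 encodes RIG-I, which binds viral RNA with a triphosphate end. It gave 81.6, 79.03, 92.1 and 88.8 CPM in WT, 24.6, 21.8 and 25.9 in IDH2-FLT3 vehicle and 58.8, 63.8, 43.02 and 42.2 with AG-221. Every IDH2-FLT3 vehicle library was below every WT and AG-221 library, and the AG-221 libraries lay in between. The vehicle level was 3.54-fold lower than WT (log2 fold change -1.82 ± 0.27, adjusted p = 0.000207) and rose 2.16-fold with AG-221 (1.11 ± 0.26, adjusted p = 0.0186), a call that ended without V3 or V3-2 (adjusted p up to 0.0903). The TET2-FLT3 vehicle libraries had 39.6, 78.6, 86.6 and 85.01 CPM of Ddx58 and the 5-Aza libraries 67.8, 82.4, 79.8 and 57.2, where V1 stood apart as the lowest and neither comparison passed (-0.24 ± 0.24, adjusted p = 0.548 and -0.01 ± 0.24, adjusted p = 0.988). Dhx58 encodes LGP2, a relative that modulates RIG-I and MDA5. Its level was 38.6, 38.5, 37.3 and 32.7 CPM in WT, 34.6, 32.96 and 27.8 in IDH2-FLT3 vehicle and 21.5, 22.2, 34.02 and 30.4 with AG-221. In TET2-FLT3 vehicle it was 54.04, 44.7, 85.3 and 99.6 CPM, all above WT, and with 5-Aza 18.3, 27.3, 24.4 and 25.6 CPM, all below both. Dhx58 rose in TET2-FLT3 vehicle (0.95 ± 0.26, adjusted p = 0.0254; not without wt1, wt3, wt4, V5 or V5-2, adjusted p up to 0.0697) and fell 2.97-fold with 5-Aza (-1.57 ± 0.26, adjusted p = 0.00318), a call that held with each library left out in turn. Ifih1, which encodes the RNA sensor MDA5, gave 0.46, 0.604, 0.248 and 0.323 CPM in WT, 1.18, 0.962 and 0.401 in IDH2-FLT3 vehicle, 0.202, 0.421, 0 and 0.848 with AG-221, 0, 0, 1.69 and 1.64 in TET2-FLT3 vehicle and 0, 0, 0.456 and 0 with 5-Aza, low values with V5 and V5-2 the highest.

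The oligoadenylate synthetases make the messenger that activates RNase L. Oas2 gave 22.8, 14.1, 5.87 and 25.7 CPM in WT, 1.43, 3.7 and 2.41 in IDH2-FLT3 vehicle, 6.35, 5.56, 12.9 and 3.85 with AG-221, 11.1, 12.1, 18.5 and 38.3 in TET2-FLT3 vehicle and 11.5, 18.04, 10.6 and 4.79 with 5-Aza. The 3 IDH2-FLT3 vehicle libraries were below all others. Oas2 was 6.72-fold lower there than in WT (-2.75 ± 0.62, adjusted p = 0.00443), and the difference between AG-221 and vehicle did not pass (1.49 ± 0.59, adjusted p = 0.102). Oas3 gave 26.2, 18.5, 18.2 and 23.8 CPM in WT, 4.39, 7.12 and 8.1 in IDH2-FLT3 vehicle, 13.8, 11.8, 9.78 and 11.1 with AG-221, 6.14, 38.9, 67.4 and 83.4 in TET2-FLT3 vehicle and 22.4, 43.2, 25.5 and 22.8 with 5-Aza. The TET2-FLT3 vehicle libraries spanned the whole range, V1 among the lowest and V5 and V5-2 the highest of all. Oas3 fell in IDH2-FLT3 vehicle (-1.73 ± 0.53, adjusted p = 0.0267; not without wt1, wt4, V3 or V3-2, adjusted p up to 0.108), and its difference in TET2-FLT3 vehicle did not pass (1.18 ± 0.47, adjusted p = 0.109) but did without V1 (1.55, adjusted p = 0.0052). Oas1a, from a family of near-identical neighbours, gave 19.5, 21.8, 12.1 and 17.5 CPM in WT, 13.4, 11.02 and 13.5 in IDH2-FLT3 vehicle, 8.66, 8.26, 12.6 and 19.6 with AG-221, 17.3, 15.2, 48.9 and 56.4 in TET2-FLT3 vehicle and 15.6, 13.4, 18.8 and 18.9 with 5-Aza. V5 and V5-2 stood above the rest, and none of its comparisons passed; TET2-FLT3 vehicle against WT (0.96 ± 0.39, adjusted p = 0.114) did without V19 (1.21, adjusted p = 0.0414).

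Oasl1 and Oasl2 are relatives, Oasl1 being known to restrain translation of Irf7. Oasl1 gave 15.6, 17.8, 6.2 and 6.61 CPM in WT, 4.73, 2.79 and 3.53 in IDH2-FLT3 vehicle, 7.96, 3.71, 8.31 and 4.62 with AG-221, 14.6, 14.2, 38.6 and 39.8 in TET2-FLT3 vehicle and 11.2, 13.8, 14.4 and 17.7 with 5-Aza. The WT libraries were split, wt1 and wt2 well above wt3 and wt4, and V5 and V5-2 were the highest. Oasl1 fell in IDH2-FLT3 vehicle (-1.65 ± 0.49, adjusted p = 0.0209; not without wt1, wt2 or V3-2, adjusted p up to 0.0881). In TET2-FLT3 vehicle it did not pass (1.22 ± 0.43, adjusted p = 0.0727) but did without V19 (1.43, adjusted p = 0.0396). Oasl2 gave 65.3, 74.3, 60.5 and 66.1 CPM in WT, 12.7, 6.54 and 30.5 in IDH2-FLT3 vehicle and 46.5, 41.4, 37.1 and 42.5 with AG-221, 3 bands that did not overlap. It fell 4.02-fold in vehicle (-2.01 ± 0.43, adjusted p = 0.00331) and rose 2.53-fold with AG-221 (1.34 ± 0.42, adjusted p = 0.0489), a call that ended without V3, V3-2, AG1, AG12, AG13 or AG8 (adjusted p up to 0.226). The TET2-FLT3 vehicle libraries gave 42.6, 64.5, 152 and 122 CPM of Oasl2 and those with 5-Aza 41.8, 61.1, 55.9 and 46.1 CPM, and neither comparison passed.

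Zbp1, a sensor of Z-form nucleic acid, had 2.68, 3.17, 2.48 and 1.53 CPM in WT, 0.844, 2.12 and 1.85 in IDH2-FLT3 vehicle, 0.202, 0.927, 3.03 and 1.46 with AG-221, 1.77, 1.25, 10.3 and 14.04 in TET2-FLT3 vehicle and 1.21, 1.46, 0.987 and 1.17 with 5-Aza. V5 and V5-2 were again the highest, and its difference with 5-Aza did not pass (-2.51 ± 0.72, adjusted p = 0.0861) but did without V1 (-2.83, adjusted p = 0.0459) or V19 (-2.85, adjusted p = 0.0314). Eif2ak2 encodes PKR, which stops translation on double-stranded RNA. It gave 122, 119, 137 and 96.2 CPM in WT, 94.8, 54.1 and 114 in IDH2-FLT3 vehicle, 80.7, 82.1, 79.1 and 104 with AG-221, 54.7, 102, 149 and 78.2 in TET2-FLT3 vehicle and 72.5, 106, 116 and 120.4 with 5-Aza. The groups overlapped and no comparison of Eif2ak2 passed, its estimates lying between -0.44 ± 0.30 (IDH2-FLT3 vehicle against WT) and 0.11 ± 0.28 (5-Aza against vehicle).

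**Figure D4:**
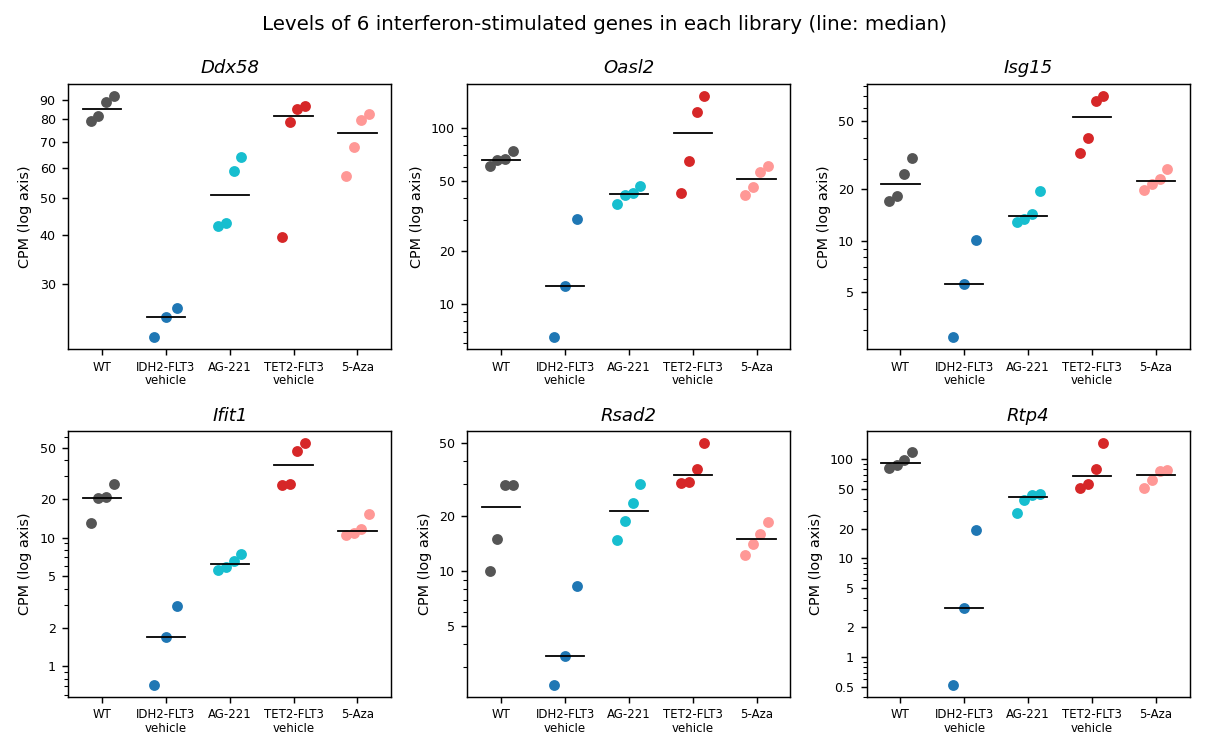
CPM on a log axis of 6 members in the 19 libraries, a point per library with the group median as a line. For Ddx58, Oasl2, Ifit1, Rsad2 and Rtp4 the 3 IDH2-FLT3 vehicle points lie below all WT points, and for Isg15 the 4 TET2-FLT3 vehicle points lie above all WT points.

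Of the transcription factors, Irf1, which starts interferon gene transcription, one of the members with several accessions, had low counts: 0.92, 1.96, 1.9 and 1.77 CPM in WT, 0, 0.0962 and 0.642 in IDH2-FLT3 vehicle, 0.504, 0.421, 0.587 and 0.385 with AG-221, 0.955, 0.48, 0.743 and 0.534 in TET2-FLT3 vehicle and 0.809, 0.162, 1.22 and 0.722 with 5-Aza. Every WT library was above the 3 IDH2-FLT3 vehicle libraries, of which V3 had 0 counts. Irf1 fell in IDH2-FLT3 vehicle (-2.73 ± 0.83, adjusted p = 0.0254; not without any 1 of wt3, wt4, V3 or V3-2, with an adjusted p up to 0.119), but with counts summed over its accessions the change was -0.79 ± 0.60 (adjusted p = 0.369). Irf9, too low to test, gave 0.69, 0.604, 0.331 and 0.403 CPM in WT, 0.0844, 0.0962 and 0.161 in IDH2-FLT3 vehicle, 0.907, 0.843, 0.587 and 0.385 with AG-221, 0.409, 0, 0.608 and 0.452 in TET2-FLT3 vehicle and 0.081, 0.324, 0.228 and 0.181 with 5-Aza, at most 0.907 in any library. Stat2, a partner of IRF9, gave 71.7, 62.3, 62.1 and 77.6 CPM in WT, 115, 114 and 87.5 in IDH2-FLT3 vehicle, 60.3, 47.4, 104 and 46.5 with AG-221, 66.9, 72.4, 105 and 136 in TET2-FLT3 vehicle and 52.2, 67.4, 41.5 and 52.5 with 5-Aza. IDH2-FLT3 vehicle was above WT without overlap, unlike Ddx58 and the synthetases, but Stat2 passed in no comparison (0.62 ± 0.29, adjusted p = 0.132 against WT); against AG-221 it passed without AG13 (-1.03, adjusted p = 0.0354).

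Among the modulators, Isg15 encodes the ubiquitin-like tag of the interferon response and Herc6 the ligase that attaches it in mice. Isg15 gave 24.5, 30.3, 18.3 and 17.2 CPM in WT, 5.57, 2.74 and 10.1 in IDH2-FLT3 vehicle and 12.9, 14.4, 19.5 and 13.4 with AG-221. The TET2-FLT3 vehicle libraries had 70.5, 32.7, 65.5 and 39.9 CPM, and those with 5-Aza 19.8, 23.1, 21.4 and 26.5. IDH2-FLT3 vehicle was the lowest group and TET2-FLT3 vehicle the highest, and neither overlapped WT or the drug group of its own line. Isg15 was 3.69-fold lower than WT in IDH2-FLT3 vehicle (-1.88 ± 0.39, adjusted p = 0.00257) and 2.31-fold higher in TET2-FLT3 vehicle (1.21 ± 0.34, adjusted p = 0.0302; not without wt1, wt3, wt4, V1 or V5, adjusted p up to 0.0958). With AG-221 it rose 2.46-fold (1.30 ± 0.38, adjusted p = 0.0396; not without V3, V3-2, AG1, AG12, AG13 or AG8, adjusted p up to 0.2), and with 5-Aza the difference did not pass (-1.20 ± 0.34, adjusted p = 0.0842) but did without V19 (-1.37, adjusted p = 0.0485). The difference between its drug responses ended without any 1 of V3, V3-2, AG12, AG13, AG8, V1, V5, AZ10, AZ11, AZ16 or AZ17 (adjusted p up to 0.155). Herc6 gave 46.8, 50.6, 55.1 and 61.1 CPM in WT, 31.5, 26.99 and 32.2 in IDH2-FLT3 vehicle, 37.4, 38.4, 45.8 and 44.5 with AG-221, 37.5, 44.5, 61.4 and 46.5 in TET2-FLT3 vehicle and 34.9, 35.8, 43.1 and 28.5 with 5-Aza. Its IDH2-FLT3 vehicle libraries were below WT and AG-221, and Herc6 fell by a smaller ratio, 1.77-fold (-0.82 ± 0.23, adjusted p = 0.0167; not without wt4, V3 or V3-2, adjusted p up to 0.0689). Usp18, which removes ISG15 and restrains the receptor, gave 39.02, 31.96, 28.5 and 51.3 CPM in WT, 17.7, 4.76 and 22.9 in IDH2-FLT3 vehicle, 21.7, 14.2, 31.8 and 28.97 with AG-221, 22.9, 23.4, 125 and 45.9 in TET2-FLT3 vehicle and 15.8, 20.5, 24.6 and 8.67 with 5-Aza. V5 stood far above the other libraries, and no comparison of Usp18 passed (-1.32 ± 0.57, adjusted p = 0.103 for IDH2-FLT3 vehicle against WT). Between the vehicle groups (-1.85 ± 0.58, adjusted p = 0.0705) it passed without V9 (-2.29, adjusted p = 0.0335) or V5-2 (-1.93, adjusted p = 0.0392), and by DESeq2 (adjusted p = 0.0164).

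Parp9, Parp12 and Parp14 are ADP-ribosyltransferases, and Dtx3l is the ubiquitin ligase that works with PARP9. Parp9 gave 62.4, 70.3, 59.6 and 62.1 CPM in WT, 78.8, 53.6 and 76.5 in IDH2-FLT3 vehicle, 74.04, 73.1, 72.2 and 93.2 with AG-221, 183, 89.3, 159 and 153 in TET2-FLT3 vehicle and 63.3, 82.8, 85.6 and 86.2 with 5-Aza. TET2-FLT3 vehicle was above every WT and 5-Aza library. Parp9 rose 2.29-fold there (1.20 ± 0.22, adjusted p = 0.00232), a call that held with each library left out in turn, and fell with 5-Aza (-0.88 ± 0.22, adjusted p = 0.0405; not without V1, V5, V5-2, AZ10, AZ11, AZ16 or AZ17, adjusted p up to 0.142). Dtx3l, which shares its promoter region with Parp9 in a head-to-head pair, gave 216, 229.99, 258 and 186 CPM in WT, 169, 104 and 195 in IDH2-FLT3 vehicle, 311, 183, 169 and 122 with AG-221, 254, 506, 321 and 188 in TET2-FLT3 vehicle and 303, 352, 248 and 206 with 5-Aza. Its groups overlapped and none of its comparisons passed (0.51 ± 0.31, adjusted p = 0.304 for TET2-FLT3 vehicle against WT). Parp12 gave 46.1, 38.8, 35.6 and 38.5 CPM in WT, 5.74, 10.4 and 25.6 in IDH2-FLT3 vehicle, 36.2, 28.3, 31.6 and 19.6 with AG-221, 60.9, 42.5, 45.1 and 67.2 in TET2-FLT3 vehicle and 42.7, 37.7, 42.3 and 34.2 with 5-Aza. It fell 2.86-fold in IDH2-FLT3 vehicle (-1.51 ± 0.37, adjusted p = 0.00753), most in V3 and least in V9, and with AG-221 the difference did not pass (1.05 ± 0.37, adjusted p = 0.0679) but did without V9 (1.84, adjusted p = 0.00105).

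Trim30a, a restriction factor of a tandem family, gave 245, 235, 229.95 and 252 CPM in WT, 178, 114 and 182 in IDH2-FLT3 vehicle, 181, 163, 298 and 124 with AG-221, 451, 278, 390.4 and 209 in TET2-FLT3 vehicle and 176, 191, 159.6 and 177 with 5-Aza. WT was tight, both IDH2-FLT3 vehicle and 5-Aza lay wholly below it, and Trim30a passed between the vehicle groups alone (-1.07 ± 0.30, adjusted p = 0.0433; not without V3, V3-2, V1, V19 or V5, adjusted p up to 0.158). Its difference with 5-Aza (-0.92 ± 0.27, adjusted p = 0.0978) passed without V5-2 (-1.13, adjusted p = 0.0339). Sp100, a protein of nuclear bodies, gave 119.96, 131, 123 and 109 CPM in WT, 304, 172 and 162 in IDH2-FLT3 vehicle, 72.7, 119, 87.2 and 140.1 with AG-221, 75.6, 64.2, 251 and 179 in TET2-FLT3 vehicle and 77.3, 86.2, 103 and 77.5 with 5-Aza. It was highest in IDH2-FLT3 vehicle, above WT and AG-221 without overlap, but did not pass (0.82 ± 0.37, adjusted p = 0.117 and -1.02 ± 0.37, adjusted p = 0.0756; the second passed without V9, -1.18, adjusted p = 0.049). Parp14 and Ifi35 passed in none of the 7 pairwise comparisons. Parp14 had 66.05 ± 4.14 CPM (mean ± SD, n = 4) in WT, 50.3 ± 16.5 (n = 3) in IDH2-FLT3 vehicle and 84.9 ± 34.4 (n = 4) in TET2-FLT3 vehicle, and Ifi35 had 88.04 ± 19.2, 109 ± 43.98 and 125 ± 60.7 CPM in the same groups.

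The GTPases of the list other than Mx1 and Mx2 act at the vacuoles of intracellular pathogens. Gbp2 gave 63.9, 66.9, 69.6 and 57.98 CPM in WT, 22.4, 24.1 and 28.2 in IDH2-FLT3 vehicle and 47.05, 51.6, 71.96 and 46.6 with AG-221. The vehicle libraries lay below all others, and AG13 reached above WT. Gbp2 fell 2.59-fold in IDH2-FLT3 vehicle (-1.37 ± 0.24, adjusted p = 0.000655) and rose 2.18-fold with AG-221 (1.12 ± 0.24, adjusted p = 0.0109; not without V3 or V3-2, adjusted p up to 0.0617). In TET2-FLT3 vehicle it gave 86.4, 54.8, 67.2 and 50.7 CPM and with 5-Aza 41.8, 41.3, 38.7 and 41.4 CPM, the latter wholly below vehicle and WT, though the comparison with vehicle did not pass (-0.67 ± 0.21, adjusted p = 0.139). Its difference between drug responses ended without V3, V3-2 or AZ16 (adjusted p up to 0.0699). Igtp (IRGM3) gave 62.9, 79.9, 50.8 and 51.7 CPM in WT, 62.95, 35.5 and 112 in IDH2-FLT3 vehicle, 101, 108, 93.2 and 144 with AG-221, 130.05, 125, 191 and 142 in TET2-FLT3 vehicle and 75.6, 115, 91.6 and 157 with 5-Aza. All TET2-FLT3 vehicle libraries were above WT, and Igtp rose 2.4-fold there (1.26 ± 0.30, adjusted p = 0.0127; not without wt3, adjusted p = 0.0511). With AG-221 it did not pass (0.67 ± 0.33, adjusted p = 0.173) but did without V9 (1.19, adjusted p = 0.0205). Irgm1 gave 109.9, 144, 114 and 92.9 CPM in WT, 116, 69.7 and 108 in IDH2-FLT3 vehicle, 68.2, 96.3, 65.8 and 115 with AG-221, 95.7, 92.97, 213 and 139 in TET2-FLT3 vehicle and 79.98, 105, 115 and 82.3 with 5-Aza, with overlapping groups and no call. Gbp3 had 0.162 to 3.41 CPM on its main accession; it was lower with 5-Aza than with vehicle in all libraries, but did not pass (-2.07 ± 0.59, adjusted p = 0.0812), though it did without V19 (-2.31, adjusted p = 0.047).

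Among the other effectors, Ifit1, which binds RNA that lacks a host cap and blocks its translation, passed in the most comparisons, 5 of the 7 pairs. It gave 26.2, 20.6, 13.1 and 20.3 CPM in WT, 2.95, 0.722 and 1.69 in IDH2-FLT3 vehicle, 5.64, 7.5, 5.87 and 6.63 with AG-221, 46.9, 25.8, 53.8 and 25.6 in TET2-FLT3 vehicle and 11.7, 15.1, 10.4 and 10.9 with 5-Aza. The bands of IDH2-FLT3 vehicle, AG-221 and 5-Aza followed each other without overlap, and TET2-FLT3 vehicle reached highest. Ifit1 was 11.4-fold lower than WT in IDH2-FLT3 vehicle (-3.51 ± 0.45, adjusted p = 6.1e-05). It rose 3.64-fold with AG-221 (1.87 ± 0.42, adjusted p = 0.0154; not without V3-2, adjusted p = 0.0849) and stayed 3.12-fold below WT (-1.64 ± 0.37, adjusted p = 0.0142; not without wt1, adjusted p = 0.0617). With 5-Aza it fell 3.15-fold (-1.66 ± 0.36, adjusted p = 0.019; not without V5, AZ10, AZ16 or AZ17, adjusted p up to 0.0887), and the difference between the drugs ended without V3-2 (adjusted p = 0.0542). Ifit3, whose reads may be shared with its near copy Ifit3b, gave 2.15, 2.27, 1.16 and 2.18 CPM in WT, 0.338, 0.144 and 1.85 in IDH2-FLT3 vehicle, 0.403, 0.505, 5.96 and 0.694 with AG-221, 9.28, 4.13, 17.4 and 10.9 in TET2-FLT3 vehicle and 0.809, 1.21, 1.44 and 2.35 with 5-Aza. TET2-FLT3 vehicle was above WT and above 5-Aza without overlap, but neither passed (2.42 ± 0.79, adjusted p = 0.0536 and -2.84 ± 0.80, adjusted p = 0.0812); against WT it did without V19 (2.69, adjusted p = 0.0381). Its difference in IDH2-FLT3 vehicle (-1.35 ± 0.88, adjusted p = 0.29) passed without V9 (-3.04, adjusted p = 0.0435).

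Rsad2 encodes viperin, which makes a chain-terminating nucleotide, and Cmpk2 beside it on the chromosome supplies its substrate. Rsad2 gave 29.7, 29.8, 10.1 and 14.9 CPM in WT, 3.46, 2.41 and 8.26 in IDH2-FLT3 vehicle, 18.9, 23.6, 29.9 and 14.9 with AG-221, 30.8, 36.1, 49.9 and 30.5 in TET2-FLT3 vehicle and 12.3, 18.5, 14.1 and 16.1 with 5-Aza. IDH2-FLT3 vehicle was below every other library, and WT was split as for Oasl1. Rsad2 fell 4.51-fold (-2.17 ± 0.45, adjusted p = 0.00244) and rose 4.65-fold with AG-221 (2.22 ± 0.45, adjusted p = 0.0101; not without V3 or V3-2, adjusted p up to 0.0671), and the drug difference ended without V3 or V3-2 (adjusted p up to 0.0695). Cmpk2 gave 19.6 ± 9.03 CPM (mean ± SD, n = 4) in WT, 36.05 ± 19.1 (n = 3) in IDH2-FLT3 vehicle and 41.5 ± 7.81 (n = 4) in TET2-FLT3 vehicle. Unlike that of Rsad2, its estimate in IDH2-FLT3 vehicle was above 0, and it did not pass (0.88 ± 0.37, adjusted p = 0.0954) except without wt1 (1.18, adjusted p = 0.0449). That in TET2-FLT3 vehicle did not pass either (1.08 ± 0.35, adjusted p = 0.0523), although it did without wt1 (1.38, adjusted p = 0.0351) or V5 (1.20, adjusted p = 0.0458).

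Rtp4, a chaperone of membrane receptors that is induced by type I interferon, gave 119, 86.96, 82.5 and 98.1 CPM in WT, 3.12, 0.529 and 19.5 in IDH2-FLT3 vehicle, 28.9, 38.8, 43.9 and 44.8 with AG-221, 80.2, 56.7, 145 and 51.6 in TET2-FLT3 vehicle and 50.8, 62.5, 75.7 and 78.6 with 5-Aza. IDH2-FLT3 vehicle was below all others, V3-2 lowest and V9 highest of the 3, and AG-221 lay between vehicle and WT. Rtp4 fell 12.6-fold (-3.66 ± 0.71, adjusted p = 0.00151) and rose 5.12-fold with AG-221 (2.36 ± 0.67, adjusted p = 0.0337; not without V3, V3-2, AG12, AG13 or AG8, adjusted p up to 0.123). Xaf1, a partner of the apoptosis inhibitor XIAP, had 12.03, 13.3, 13.8 and 14.1 CPM in WT, 3.04, 1.25 and 7.94 in IDH2-FLT3 vehicle, 6.04, 8.17, 8.8 and 8.78 with AG-221, 8.32, 10.4, 26.2 and 9.15 in TET2-FLT3 vehicle and 9.8, 10.5, 9.95 and 13.001 with 5-Aza. It fell in IDH2-FLT3 vehicle (-1.71 ± 0.50, adjusted p = 0.0204; not without V3 or V3-2, adjusted p up to 0.0919), and AG-221 overlapped vehicle through V9. With AG-221 it did not pass (0.97 ± 0.49, adjusted p = 0.188) but did without V9 (1.92, adjusted p = 0.0138).

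Samd9l, a restraint on growth of blood progenitors that is lost or mutated in myeloid disease, gave 104, 92.2, 107 and 131 CPM in WT, 61.5, 76.5 and 98.5 in IDH2-FLT3 vehicle, 80.6, 71.5, 167 and 67.5 with AG-221, 174, 119, 137 and 145 in TET2-FLT3 vehicle and 57.4, 54.9, 49.1 and 51.3 with 5-Aza. The 5-Aza libraries were tight and below every other library. Samd9l fell 2.7-fold against vehicle (-1.43 ± 0.26, adjusted p = 0.00575), which held with each library left out. Bst2 (tetherin, which holds budding virus at the cell surface) gave 223, 236, 161 and 161 CPM in WT, 189, 125 and 249 in IDH2-FLT3 vehicle, 182, 205, 255 and 226 with AG-221, 405, 288, 416 and 274 in TET2-FLT3 vehicle and 239.7, 279.7, 244 and 418 with 5-Aza. Every TET2-FLT3 vehicle library was above WT. Bst2 rose there (0.83 ± 0.26, adjusted p = 0.0457; not without wt1, wt2, wt3, wt4, V1 or V5, adjusted p up to 0.134), but not with RLE in place of TMM scaling (adjusted p = 0.0532). Tor3a rose in both leukemias. It gave 55.1, 57.8, 47.6 and 40.3 CPM in WT, 126, 127 and 70.1 in IDH2-FLT3 vehicle, 60.8, 45.4, 51.2 and 48.9 with AG-221, 76.96, 61.9, 107 and 124 in TET2-FLT3 vehicle and 64.7, 53.3, 68.95 and 54.8 with 5-Aza. Both vehicle groups were above WT without overlap. Tor3a rose 2.14-fold in IDH2-FLT3 vehicle (1.10 ± 0.26, adjusted p = 0.00586) and 1.84-fold in TET2-FLT3 vehicle (0.88 ± 0.24, adjusted p = 0.0273; not without wt1, wt3, wt4, V5 or V5-2, adjusted p up to 0.0837) and fell with AG-221 (-1.06 ± 0.26, adjusted p = 0.0207; not without V3, V3-2 or AG12, adjusted p up to 0.0978). limma on log2(FPKM + 1) called none of these changes in Tor3a (adjusted p = 0.0669, 0.165 and 0.0615).

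Ifitm3, Ifit2, Cmpk2 and Lgals3bp passed in none of the 7 pairwise comparisons. Ifitm3, which keeps viruses from fusing with the cell, varied widely across libraries, from 142 CPM in V3-2 to 2895 in AZ17, and its estimate between the vehicle groups was -1.87 ± 0.54, adjusted p = 0.0518. That difference passed without V9 (-2.72, adjusted p = 0.0042) or V5-2 (-2.17, adjusted p = 0.0147), with RLE scaling (adjusted p = 0.0493), by DESeq2 (adjusted p = 0.00577) and by limma on log2(FPKM + 1) (adjusted p = 0.0187). Its other estimates were 1.26 ± 0.48, adjusted p = 0.0929 in TET2-FLT3 vehicle (1.59, adjusted p = 0.036 without V5-2) and 1.21 ± 0.52, adjusted p = 0.128 with AG-221 (2.06, adjusted p = 0.018 without V9). Ifit2, an RNA-binding relative of Ifit1 from the same gene cluster, gave 37.8 ± 4.58 CPM (mean ± SD, n = 4) in WT and 30.96 ± 10.3 (n = 3) in IDH2-FLT3 vehicle, where its estimate did not pass (-0.29 ± 0.30, adjusted p = 0.517), while its 63.1 ± 22.7 CPM (n = 4) in TET2-FLT3 vehicle differed from WT only without V19 (0.94, adjusted p = 0.0262; all libraries, 0.74 ± 0.28, adjusted p = 0.089). Lgals3bp, a secreted glycoprotein, had 246 ± 40.9 CPM in WT (n = 4), 205 ± 61.8 in IDH2-FLT3 vehicle (n = 3) and 340.4 ± 142 in TET2-FLT3 vehicle (n = 4). Of the list, 22 of the 38 tested members passed in at least 1 of the 7 pairwise comparisons and 16 in none. Of the 54 calls of a member in a comparison, the difference of drug responses included, 33 ended when some single library was left out.

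The genes that make, receive and transmit the signal were read from a list of 51, of which 23 could be tested. Of 18 interferon genes 10 had 0 counts in all 19 libraries, and 7 had under 10 counts in all, Ifnb1 2 and Ifng 6 among them. A count of 0 over the 19 libraries allows up to 0.0123 CPM by counting error. Ifnk, an interferon known from skin, had 120 counts in all and up to 2.84 CPM, and passed in no comparison. Tyk2 and Jak2, and the sensors of the cGAS and STING pathway, had too few counts to be tested.

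Receptor and kinase genes did not move as one. Ifngr1, the ligand-binding chain for interferon gamma, gave 249, 319, 251 and 219.6 CPM in WT, 961, 540.4 and 422 in IDH2-FLT3 vehicle, 194, 308, 311 and 245 with AG-221, 319, 236, 333 and 218 in TET2-FLT3 vehicle and 182, 153, 185 and 127 with 5-Aza. IDH2-FLT3 vehicle stood above all other libraries, so that Ifngr1 rose in the comparison in which the members' median was below 0 (1.30 ± 0.28, adjusted p = 0.00335), and it fell with AG-221 (-1.28 ± 0.28, adjusted p = 0.0139; not without V3, adjusted p = 0.0989). Ifnar1 gave 166, 174 and 160.5 CPM in IDH2-FLT3 vehicle and 122, 96.6, 84.96 and 91.4 with AG-221, a fall without overlap (-0.76 ± 0.22, adjusted p = 0.0358; not without V3, V3-2, AG12, AG13 or AG8, adjusted p up to 0.128). Jak1 gave 477, 462, 573 and 430.1 CPM in WT and 227, 284 and 318 in IDH2-FLT3 vehicle, where it fell without overlap (-0.82 ± 0.26, adjusted p = 0.0329; not without wt1, wt3, wt4, V3 or V3-2, adjusted p up to 0.131). Il10rb, shared by the receptors of interferon lambda and interleukin 10, rose in TET2-FLT3 vehicle (0.61 ± 0.17, adjusted p = 0.0282; not without wt1, wt3 or wt4, adjusted p up to 0.0804). Of the inhibitors, Socs3, which blocks the kinases, gave 0.422, 1.68 and 5.22 CPM in IDH2-FLT3 vehicle and 16.8, 10.4, 13.2 and 10.1 with AG-221, a rise without overlap (2.37 ± 0.64, adjusted p = 0.029; not without V3, V3-2 or AG1, adjusted p up to 0.137). The calls of Ifnar1 and Il10rb also ended by limma on both FPKM scales, and those of Ifngr1, Jak1 and Socs3 named here held.

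Genes that sense nucleic acid upstream of interferon were higher in IDH2-FLT3 vehicle than in WT in 6 of 11 tested (10.1% of all accessions rose) and lower in 0 by the quasi-likelihood test, with 1 of 11 estimates below 0. By limma on log2(FPKM + 1) and on log2(FPKM + 0.1), 0 of the 11 rose and 1, Irf3, fell, and with single libraries left out of the quasi-likelihood test 1 to 5 rose. Tlr3, the endosomal receptor for double-stranded RNA, gave 4.91, 10.2, 8.35 and 9.6 CPM in WT, 26.9, 30.4 and 130.2 in IDH2-FLT3 vehicle, 6.04, 13.5, 136 and 10.9 with AG-221, 40.5, 38.2, 128 and 117 in TET2-FLT3 vehicle and 1.05, 2.99, 2.81 and 1.81 with 5-Aza. Both vehicle groups were above WT, 5-Aza was below every other library, and V9 and AG13 stood out within their groups. Tlr3 rose in IDH2-FLT3 vehicle (2.92 ± 0.82, adjusted p = 0.0171; not without wt1 or V9, adjusted p up to 0.117) and in TET2-FLT3 vehicle (3.29 ± 0.81, adjusted p = 0.0143; not without wt1, adjusted p = 0.0509), and fell with 5-Aza (-5.22 ± 0.90, adjusted p = 0.00366), which held with each library left out in turn. V9 and AG13 also had the highest summed level of 7 conventional dendritic cell genes in their groups, 5611 and 4419 CPM. With 5-Aza that level, mostly H2-Ab1 and Flt3 in each group, was 253 to 488 CPM, and the part of such cells was not tested. Tlr9, the receptor for CpG DNA, gave 0.92, 0.68, 0.661 and 0.565 CPM in WT, 2.7, 22.1 and 4.01 in IDH2-FLT3 vehicle, 0.101, 0.59, 2.35 and 0.231 with AG-221, 0.819, 2.11, 4.53 and 31.5 in TET2-FLT3 vehicle and 0.081, 0.728, 0.38 and 0.271 with 5-Aza. V3-2 and V5-2 were far above their groups. Tlr9 rose in IDH2-FLT3 vehicle (3.75 ± 1.06, adjusted p = 0.0173; not without wt4 or V3-2, adjusted p up to 0.165) and in TET2-FLT3 vehicle (3.78 ± 1.03, adjusted p = 0.0258; not without wt1, wt2, wt3, wt4 or V5-2, adjusted p up to 0.163). It fell with AG-221 (-3.56 ± 1.06, adjusted p = 0.0399; not without V3, V3-2, AG1, AG12 or AG8, adjusted p up to 0.296) and with 5-Aza (-4.71 ± 1.10, adjusted p = 0.0274; not without V5-2, AZ10, AZ11, AZ16 or AZ17, adjusted p up to 0.16). Unc93b1, which carries these receptors to endosomes, gave 14.8, 16.9996, 10.2 and 15.9 CPM in WT and 97.98, 91.7 and 52.1 in IDH2-FLT3 vehicle, a rise without overlap (2.48 ± 0.83, adjusted p = 0.0409; not without wt1, wt2, wt3, wt4, V3 or V3-2, adjusted p up to 0.104). The adaptors Myd88 (0.77 ± 0.25, adjusted p = 0.0369; not without wt1, wt3, wt4, V3, V3-2 or V9, adjusted p up to 0.128) and Ticam1 (1.32 ± 0.40, adjusted p = 0.0262; not without wt1, wt3, wt4, V3 or V3-2, adjusted p up to 0.103) rose there too. The kinase gene Ikbke gave 33.96, 36.9, 36.9 and 56.8 CPM in WT and 126, 190.4 and 28.7 in IDH2-FLT3 vehicle, above every WT library in V3 and V3-2 and below them all in V9 (1.48 ± 0.41, adjusted p = 0.0164; not without V3 or V3-2, adjusted p up to 0.152). Ticam1 (-1.43 ± 0.40, adjusted p = 0.0342; not without V3, V3-2, AG1, AG12 or AG8, adjusted p up to 0.153) and Ikbke (-1.39 ± 0.41, adjusted p = 0.04; not without V3, V3-2, AG1, AG12, AG13 or AG8, adjusted p up to 0.291) fell with AG-221. Irf3, the factor that TBK1 activates to start interferon transcription, fell in TET2-FLT3 vehicle, from 8.05, 5.14, 7.35 and 12.7 to 1.36, 4.9, 2.5 and 1.07 CPM (-1.76 ± 0.51, adjusted p = 0.0326; not without wt1, wt3, wt4, V1, V5 or V5-2, adjusted p up to 0.119). Unc93b1 and Irf3 have 2 accessions each, of which 1 was counted, and that of Irf3 is a non-coding transcript. By limma on both FPKM scales the calls of Tlr9 in the other comparisons and those of Ticam1 and Ikbke with AG-221 ended too. Those of Tlr3 in TET2-FLT3 vehicle and with 5-Aza and that of Irf3 held. All 7 tested monocyte genes rose in IDH2-FLT3 vehicle against WT, and their part in these values was not tested.

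**Figure D5:**
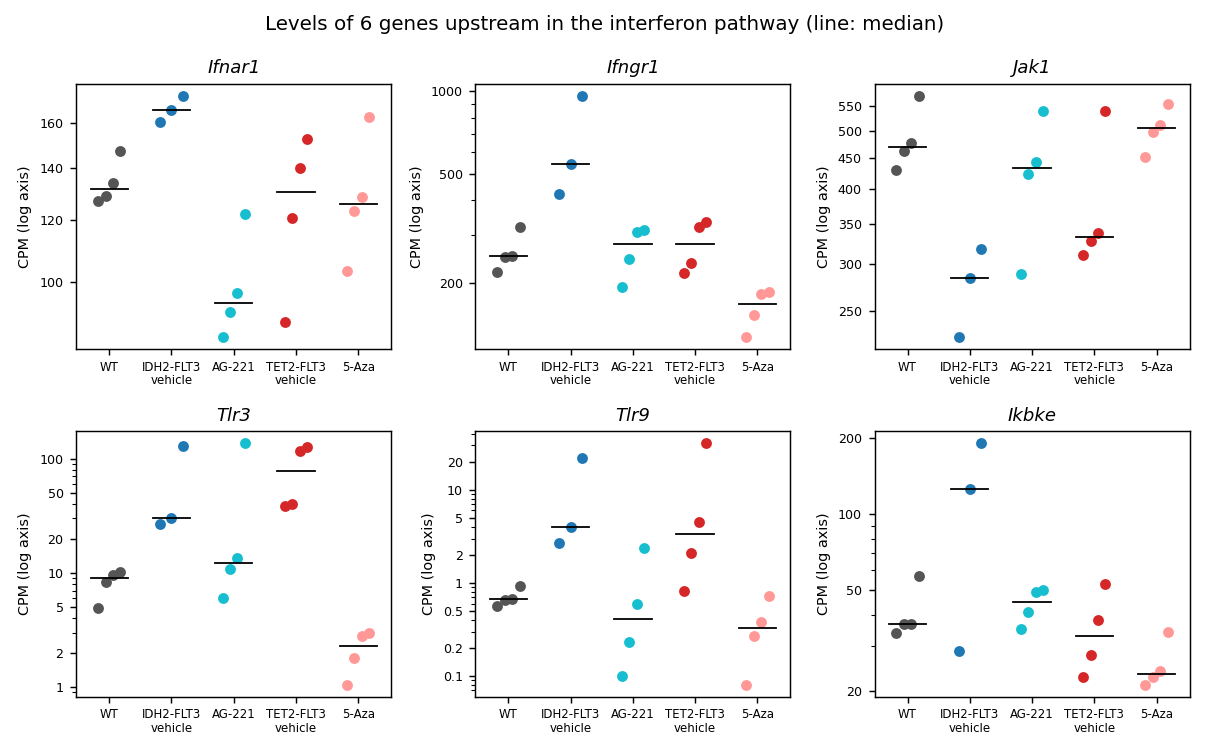
CPM on a log axis of 6 genes upstream of the response in the 19 libraries, a point per library with the group median as a line. For Ifngr1 the IDH2-FLT3 vehicle points lie above all others, and for Tlr3 the 5-Aza points lie below all others.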

How the data were processed

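RNA-seq of sorted mouse lin-Sca+cKit+ cells was analysed in 19 libraries. The authors made the libraries from polyadenylated RNA with a SMARTer Ultra Low Input kit, per the labels' protocols, and the submitters' processing notes name STAR 2.4.0f1, the build mm9 and featureCounts of Subread 1.4.5-p1. The authors deposited counts and FPKM for 33862 RefSeq accessions. Accessions without a gene name held 3.47% of the counts. Each member took the accession with the highest mean count, and the 47 members, the pathway and marker lists and the tests were chosen with earlier results of these data known. The text gives values in every library for all counted sensors and transcription factors and for up to 8 genes of each other role. Up to 12 called pathway genes were named by smallest p, in the groups that bear on them.

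Counts were fitted with edgeR 4.0.16 (quasi-likelihood test, TMM factors 0.761 to 1.22, filterByExpr by group) over 11830 accessions, with 5 group means in 1 model of 19 libraries, 14 residual degrees of freedom and a biological coefficient of variation of 42.9%. P-values were adjusted by Benjamini-Hochberg over all accessions tested, and an adjusted p under 0.05 was a call. "±" after a log2 fold change is its standard error. The code was tested on simulated data. CPM are counts scaled to each library's total times its TMM factor. Floors assume 3 counts and cover counting error only, since reads carry no molecular identifiers. Same-group libraries differed beyond sampling noise. Alternatives were RLE scaling, no or a stricter low-count filter, the compared groups alone, DESeq2 1.42.0, limma 3.58.1 on log2(FPKM + 1) and log2(FPKM + 0.1), accessions summed per gene, leaving out V3-2 and V5-2 together, and leaving out each library.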

Additional observations from a re-analysis of the deposited data

Results flagged for a closer look

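Among 152 groups of 4 libraries, the highest or lowest library of 14 (9.21%) lay farther from the others than Dixon's 95% limit allows; chance gives about 1 in 20. Among WT libraries these were wt3 for Ifit2 (44.6 CPM, the others 34.98 to 36.03) and for Ifit3 (1.16, the others 2.15 to 2.27). With AG-221 they were AG8 for Eif2ak2 (104.0 CPM) and Parp9 (93.2), AG12 for Gbp3 (1.35) and AG13 for Ifit3 (5.96, the others 0.403 to 0.694) and Samd9l (166.7, the others 67.5 to 80.6). In TET2-FLT3 vehicle they were V1 for Ddx58 (39.6 CPM, the others 78.6 to 86.6) and V5 for Ifi35 (214.9, the others 83.8 to 102.9) and Xaf1 (26.2, the others 8.32 to 10.4). With 5-Aza they were AZ16 for Ifih1 (0.456 CPM, the others at 0) and Gbp2 (38.7), AZ11 for Oas3 (43.2, the others 22.4 to 25.5) and AZ10 for Parp9 (63.3).

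The response to AG-221 minus that to 5-Aza passed an adjusted p under 0.05 by edgeR's quasi-likelihood test in Isg15 (2.50 on the log2 scale), Gbp2 (1.79), Ifit1 (3.52) and Rsad2 (3.49).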

How the results depend on the processing

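No direction of a called member reversed under any alternative. The 15 calls of IDH2-FLT3 vehicle against WT were 11 to 16 under the other settings and 10 to 16 with single libraries left out. TET2-FLT3 vehicle against WT (6 calls) gave 3 by limma on log2(FPKM + 0.1) and 1 to 10 with libraries left out. AG-221 against vehicle (8) gave 0 in the compared groups alone, 2 without V3-2 and V5-2, and 0 to 13. 5-Aza against vehicle (4) gave 12 by DESeq2 and 2 to 7. AG-221 against WT (1) gave 7 in the compared groups alone, 2 by DESeq2, 2 by limma on log2(FPKM + 1) and 0 to 1. 5-Aza against WT (1) gave 0 without a filter, 11 in the compared groups alone, 3 by DESeq2, 3 and 2 by limma with a pseudocount of 1 and 0.1, and 0 with any library left out. The vehicle groups against each other (15) gave 1 alone, 26 by DESeq2 and 8 to 22. The difference of drug responses (4) gave 8 without a filter, 0 in the compared groups alone, 10 by DESeq2 and 0 to 11. The cause was not tested. Counted once for each call and each setting, a call was lost in 71 cases under other settings and in 116 with single libraries left out. It held in 414 and 306 cases. On the log2(FPKM + 0.1) scale the median of all accessions against WT was -0.29 in IDH2-FLT3 vehicle and -0.28 in TET2-FLT3 vehicle. A count of 0 allowed 0.311 CPM in the shallowest library. No paired analysis was possible because replicate numbers of the labels could be matched to library names in WT alone.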
